A study of Mus musculus with 2 samples.

Results

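The genes described here encode the machinery that turns odorant binding into an electrical signal in the cilia of olfactory sensory neurons. They are Omp, Gnal, Adcy3, Cnga2, Cnga4, Cngb1, Ano2, Stoml3, Gng13 and Ric8b, 10 of the 21755 protein-coding genes annotated by GENCODE release M21 on the 20 chromosomes of the data. The set was given by gene symbol, with no threshold on the boundary data, but it was chosen with earlier results of these data known. Each symbol matched 1 gene. What was measured is where chromosome neighbourhoods ended around these genes, by in situ Hi-C, which joins and sequences DNA segments that lie close together in fixed nuclei.

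Nuclei came from mature olfactory sensory neurons sorted from the olfactory epithelium of adult mice, males and females mixed, with strain and age in weeks not given. All animals carried a conditional Ldb1 knockout with OMP-Cre, that is, Cre recombinase under the control of Omp, so deletion was set to begin late, in neurons that already express this marker. Ldb1 is a cofactor that bridges transcription factors such as Lhx2. There was 1 group with 2 biological replicates of 1000000 cells each, and no control library was analysed here. One label field lists no genetic modification, and the labels do not say whether the Cre allele alters the Omp locus itself. A contact map holds no RNA, so neither the loss of Ldb1 nor the identity of the sorted cells could be checked against marker genes.

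In the textbook account, an odorant receptor activates the G protein Golf, whose alpha subunit is encoded by Gnal and which pairs with the gamma subunit from Gng13. Ric8b assists Golf, and adenylyl cyclase 3 (Adcy3) then makes cAMP. cAMP opens a cation channel built from the subunits Cnga2, Cnga4 and Cngb1, and the calcium that enters opens the chloride channel Ano2. Omp, the olfactory marker protein, tunes the speed of this response, and Stoml3 is a stomatin-family protein of the cilia membrane. Boundaries in contact maps mark positions that few contacts cross, and many form where CTCF halts the cohesin ring.

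The submitters called boundaries as 5 kb bins on the pooled contacts of both replicates, so each value below is a single value with no replicate error, and the sequencing depth behind it is unknown. Strength is the authors' score for a bin. It started at 0.2 over the 7610 bins, and bins scoring 0.5 or more were in the class strong. A domain here is the stretch between the nearest boundary bins on either side of a transcription start site (TSS). Where the TSS lay in a boundary bin, it is the stretch downstream of that bin. No test was run: with 1 pooled list and 10 genes, counts and medians are given beside those of all protein-coding genes, and 1 gene moves a share by 10 percentage points.

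Of the transduction genes, Gnal and Gng13 had their TSS at a boundary, which here means inside a bin or no more than 10 kb from its edge. That is 2 of 10, against 14.3% of all protein-coding genes. Both TSSs lay inside the bin itself, as did those of 3.86% of protein-coding genes. These counts use the 5′ end of each gene record. Another group of coding starts of Gnal lay 43.0 to 43.8 kb from the bin, and which starts these neurons use was not measured. For 6 others (Omp, Adcy3, Cnga2, Cnga4, Cngb1 and Stoml3) the nearest boundary lay 23.4 to 49.5 kb away, for Ano2 80.4 kb and for Ric8b 272 kb. A range of 20 to 50 kb, set after these values were seen, held 23.1% of protein-coding genes. The median over the 10 genes was 45.3 kb, against 56.6 kb over all protein-coding genes (interquartile range 23.3 to 105 kb).

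**Figure D1:**
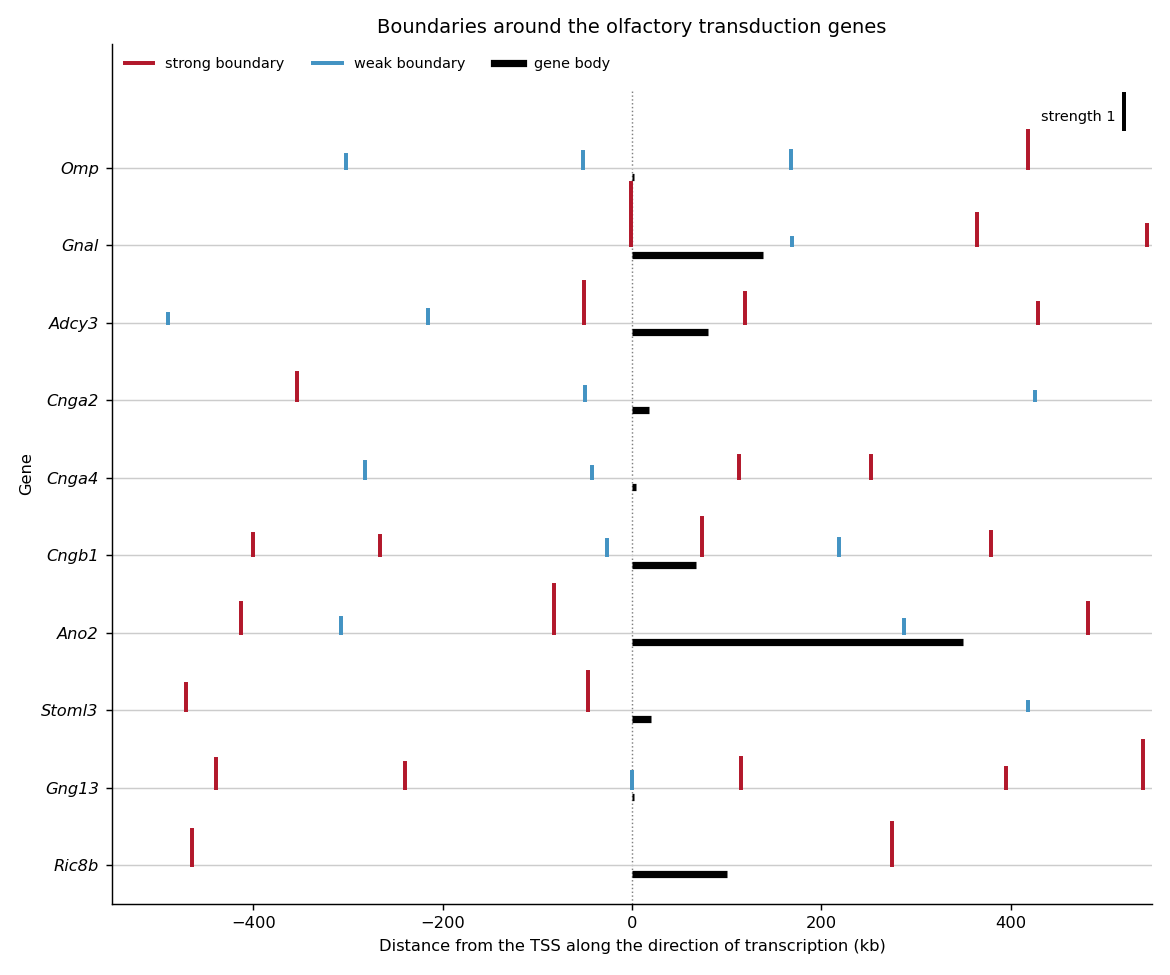
Boundaries around each TSS, drawn along the direction of transcription (x axis, kb from the TSS; 1 row per gene). Vertical lines are boundary bins with height in proportion to strength, red for strong and blue for weak, and black bars are gene bodies. The gene records of Gnal and Gng13 start on a boundary, Ano2 runs across one, and Ric8b has none within 272 kb of its TSS.

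Of the 20 boundaries that flanked the 10 genes, 10 were strong, against 52.9% of the list. Their median strength was 0.556 (range 0.202 to 1.78), against 0.538 for the list (interquartile range 0.308 to 0.937). Over autosomal members alone, that is, without Cnga2, the median was 0.734, with no median of autosomal boundaries beside it. Adcy3 and Ric8b had a strong boundary on both sides, which holds for 37.1% of protein-coding genes with a boundary on each side. Omp and Cnga2 had a weak one on both sides, which holds for 13.7%. The other 6 genes had 1 of each. The upstream boundary was the stronger of the pair in 5 of 10 genes (Gnal, Adcy3, Cnga2, Ano2 and Stoml3), against 51.5% of genes.

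**Figure D2:**
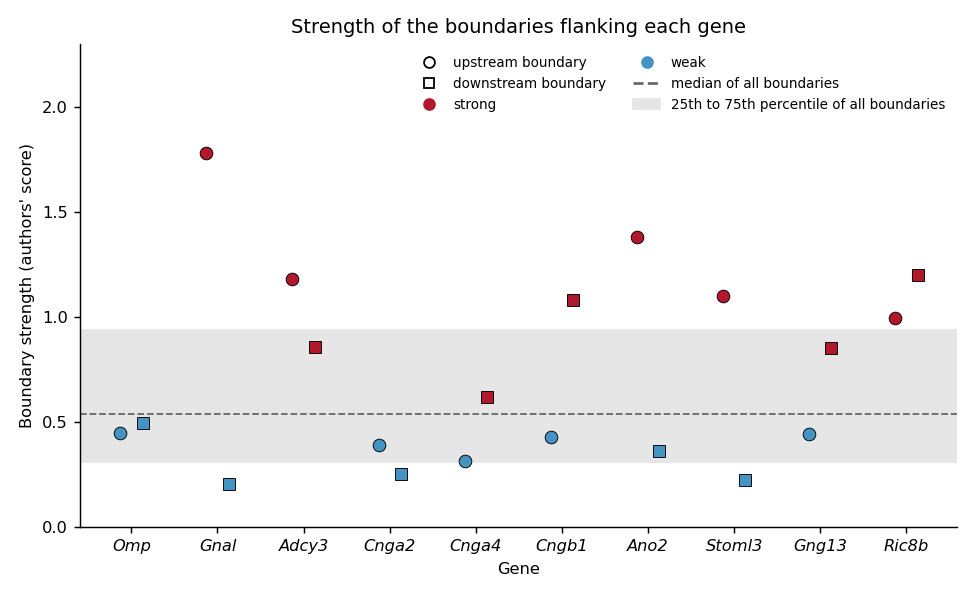
Strength (y axis, the authors' score) of the upstream (circles) and downstream (squares) boundary of each gene (x axis), red for strong and blue for weak. The grey band spans the 25th to the 75th percentile of all 7610 boundaries and the dashed line their median of 0.538. Gnal has both the highest value, 1.78, and the lowest, 0.202.

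The CTCF consensus, a sequence match and no measure of binding, was found within 10 kb of 3 of the 20 flanking boundaries, against 24.4% of all boundaries. In the bin itself it lay at 1 of 20, against 6.28%. Both strands were searched with a 12-base consensus. The 3 matches are shown because they are all that were found; capitals mark the consensus, each sequence is GRCm38 on the reverse strand, and none lies in soft-masked repeats.
Cnga4 downstream boundary (chr7:105515366-105515395): ttccaatcaCCAGCAGATGGCactgcagcg
Cngb1 downstream boundary (chr8:95235850-95235879): taagtgtggCCACCAGAGGGCgatgatccc
Ric8b downstream boundary (chr10:85186674-85186703): taataaactCCACTAGGGGGCtggggtttt
The match at Cnga4 lay in the boundary bin, the one at Cngb1 0.859 kb from it and the one at Ric8b 3.31 kb from it. Those at Cnga4 and Ric8b pointed into the gene's domain, and the one at Cngb1 pointed out of it. All 3 sat at the downstream, strong boundary of their gene. None of the 10 upstream boundaries had a match. No share by side or class was taken over all boundaries, so this split of 3 matches has no background beside it. It holds for the 10 kb window alone: within 25 kb, 9 of the 20 flanks had a match (38.5% of all boundaries), and their sides are not given.

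Among the G protein genes, Gng13 (ENSMUSG00000025739.13; chromosome 17, 25717171 to 25719406, forward strand) lay whole inside a boundary bin. The gene is 2.24 kb long, and its TSS was the only protein-coding one in the weak bin from 25715001 to 25720000 (strength 0.444, above 42.2% of the list). The bin also overlapped an exon of Chtf18, which encodes a factor of sister chromatid cohesion and is read from the opposite strand. Downstream, the domain was 110 kb long, and 2.66% of all intervals between neighbouring boundaries were shorter. This domain held no part of Gng13 itself and was taken because the gene runs toward it. It was crowded, with 13 other protein-coding TSSs. The nearest were those of Chtf18 (10.2 kb from the Gng13 TSS), Rpusd1, Mslnl, Msln, which encodes mesothelin, and Narfl (56.6 kb). It ended at a strong boundary (0.850; 25830001 to 25835000) that held the TSS of Stub1, a gene for a ubiquitin ligase, and also overlapped exons of Jmjd8, Rhbdl1 and Gm20683. Upstream of the bin lay 235 kb with the TSSs of Sstr5, a somatostatin receptor gene, Sox8 and Lmf1, up to a strong boundary (0.698). The domain had a GC content of 52.3%, and 99.3% of intervals had less.

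The 250 bases before the Gng13 TSS are shown because the TSS itself is in the boundary bin; they hold no match to the CTCF consensus.
Gng13 upstream (GRCm38 chr17:25716921-25717170, forward strand): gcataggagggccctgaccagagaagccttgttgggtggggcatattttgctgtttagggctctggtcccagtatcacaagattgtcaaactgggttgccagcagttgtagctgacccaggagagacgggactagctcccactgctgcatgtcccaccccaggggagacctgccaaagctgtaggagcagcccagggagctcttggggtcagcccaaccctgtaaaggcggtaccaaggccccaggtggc
The GC content of this stretch was 59.2%, against a median of 54.0% over the same window of all protein-coding genes, and it contained 2 CG dinucleotides.

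Gnal (ENSMUSG00000024524.17; chromosome 18, 67088216 to 67226792, forward strand) started at the strongest boundary of the whole set. Its TSS lay 3216 bases into the strong bin from 67085001 to 67090000 (strength 1.78), and 95.2% of the list was weaker. The rest of the 139 kb gene, 98.7% of its length, lay in 1 domain of 165 kb and filled 82.9% of it. That domain ended at a bin of strength 0.202 (67255001 to 67260000), close to the lowest score of the list, and 0.723% of boundaries were weaker. The other protein-coding genes that started in the domain were Chmp1b, which encodes an ESCRT-III subunit and starts inside Gnal, and Mppe1 (158 kb from the Gnal TSS), which overlaps the far end of Gnal. Behind the boundary stretched 545 kb with a single protein-coding TSS, that of Mc4r, the melanocortin 4 receptor gene. The annotated coding transcripts of Gnal start at 2 places. One group of 4 starts lay in the boundary bin, and the other group of 4 lay 44.8 to 45.5 kb downstream and 43.0 to 43.8 kb from the bin. Which of them these neurons use was not measured here.

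Ric8b (ENSMUSG00000035620.15; chromosome 10, 84917616 to 85018337, forward strand) was the transduction gene farthest from any boundary, and 94.8% of protein-coding genes lay nearer to one. Its domain of 735 kb was the longest of the 10, and 94.2% of intervals were shorter. The upstream boundary, 463 kb from the TSS, had a strength of 0.997 (84450001 to 84455000, 9.40 kb from the TSS of the kinase gene Nuak1). The downstream one had 1.20 (85190001 to 85195000, 4.94 kb from the TSS of the circadian repressor gene Cry1). Both were strong, so the domain kept its 735 kb when weak boundaries were left out. Ric8b, 101 kb long, filled 13.7% of it. It shared the domain with 8 protein-coding genes, Ckap4, Tcp11l2, Polr3b, which encodes a subunit of RNA polymerase III, and the transcription factor gene Rfx4 upstream, and Fhl4, Tmem263, Mterf2 and Cry1 downstream. No other protein-coding TSS lay between those of Rfx4 (162 kb upstream) and of Fhl4 and Tmem263 (185 kb downstream).

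Adcy3 (ENSMUSG00000020654.15; chromosome 12, 4133103 to 4213525, forward strand) lay in a compact domain with strong boundaries at both ends. The upstream boundary, 48.1 kb from the TSS, overlapped an exon and the TSS of Dnajc27 (strength 1.18; 4080001 to 4085000). The downstream one overlapped an exon of the nuclear receptor coactivator gene Ncoa1 (0.858; 4250001 to 4255000). The domain was 165 kb long and the gene filled 48.7% of it. Its other protein-coding TSSs were those of Ptrhd1 and the centromere protein gene Cenpo, both 101 kb downstream of the Adcy3 TSS. Adcy3 was, with Ric8b, 1 of 2 genes whose domain had the same length with strong boundaries alone.

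The genes of the 3 channel subunits lay on different chromosomes, and their domains had lengths of 470, 150 and 95 kb. Cnga2 (ENSMUSG00000005864.7; chromosome X, 71991849 to 72010218, forward strand), which encodes the subunit that can form the channel by itself, was flanked by weak boundaries. Upstream was a bin 46.8 kb from the TSS (strength 0.389; 71940001 to 71945000, in an exon of Gm1141). Downstream was one 423 kb away (0.250; 72415001 to 72420000, intergenic). On chromosome X 28.8% of boundaries were strong and the median strength was 0.341. In its 470 kb domain Cnga2 followed Prrg3 and Fate1 and preceded Magea4, Gabre, a GABA-A receptor subunit gene, and Magea10. The gene filled 3.91% of it.

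Cnga4 (ENSMUSG00000030897.5; chromosome 7, 105404568 to 105408742, forward strand), whose product is a modulatory subunit, was the only transduction gene with an odorant receptor gene in its domain. That gene was Olfr692, with its TSS 36.3 kb upstream of the one of Cnga4 and 3.23 kb from the weak upstream boundary (strength 0.315; 105360001 to 105365000). The strong downstream boundary (0.618; 105515001 to 105520000) was intergenic and 110 kb from the TSS. Within the 150 kb domain the other protein-coding TSSs were those of Gm5901 and Fam160a2 upstream, and of Cckbr, the cholecystokinin B receptor gene, and Cavin3, a gene of caveolae, downstream. The TSS of Fam160a2, on the reverse strand, was 4.51 kb away, and RefSeq places the start of Cnga4 4544 bases upstream of the GENCODE one. Between strong boundaries alone the stretch was 2240 kb long and held 85 odorant receptor genes among 114 protein-coding TSSs. It contained 3 weak boundaries, the upstream one of Cnga4 among them, so its length does not rest on that boundary alone.

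Cngb1 (ENSMUSG00000031789.17; chromosome 8, 95239045 to 95306585, reverse strand), the gene of the beta subunit, had the shortest domain. It measured 95 kb, and 1.11% of intervals were shorter. The 67.5 kb gene filled 71.1% of it, and the only other protein-coding TSS was that of Tepp, 3.98 kb upstream. Behind the TSS, at 23.4 kb, was a weak boundary (strength 0.429; 95330001 to 95335000) that overlapped exons of Zfp319 and Usb1 and held the TSS of Zfp319. Beyond the end of the gene was a strong intergenic one (1.08; 95230001 to 95235000). Coding transcripts of Cngb1 start at 5 positions spread over 25.0 kb, 23.4 to 46.6 kb from the nearest boundary.

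Ano2 (ENSMUSG00000038115.16; chromosome 6, 125690419 to 126040126, forward strand) was the transduction gene with a boundary inside its body. This was a weak bin (strength 0.363; 125975001 to 125980000) in an intron, 285 kb into the 350 kb gene, and 17.2% of the gene lay beyond it. The upstream boundary was strong (1.38; 125605001 to 125610000), 80.4 kb from the TSS and in an exon of Vwf, the gene of von Willebrand factor. No other protein-coding gene started in the domain of 365 kb, of which Ano2 filled 78.0%. With strong boundaries alone, the stretch was 560 kb long and held the gene whole, with 1 other protein-coding TSS. Counting Gnal and Gng13, whose bins sit at their start, a boundary bin overlapped 3 of 10 genes, against 16.2% of all protein-coding genes. Overlap rose with length over all genes: 6.11% of those up to 10 kb (1 of 3 transduction genes), 14.4% of those of 10 to 50 kb (0 of 2), 22.0% of those of 50 to 100 kb (0 of 2), 35.4% of those of 100 to 200 kb (1 of 2) and 61.2% of those of 200 to 400 kb (1 of 1).

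Stoml3 (ENSMUSG00000027744.4; chromosome 3, 53488653 to 53508502, forward strand) stood near the start of a long domain. The strong upstream boundary lay 43.7 kb from the TSS (strength 1.10; 53440001 to 53445000), and the downstream one, 416 kb away, was among the weakest of the list (0.222; 53905001 to 53910000; 6.71% were weaker). Both were intergenic. In the 460 kb domain Nhlrc3 and Proser1 started upstream of Stoml3, and Frem2, a gene of extracellular matrix, Gm10985 and Ufm1, a gene of a ubiquitin-like modifier, started downstream. Stoml3 filled 4.32% of the stretch. Without weak boundaries it extended to 1235 kb.

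Omp (ENSMUSG00000074006.3; chromosome 7, 98143359 to 98145502, reverse strand) is a gene of 2.14 kb within Capn5, which encodes a calpain protease. Its domain of 215 kb (97980001 to 98195000) had 2 other protein-coding TSSs, those of Myo7a, the unconventional myosin gene (26.0 kb downstream), and Capn5 (32.8 kb upstream). The downstream boundary was weak (strength 0.494; 97975001 to 97980000), in an intron of Gdpd4 and 166 kb from the TSS. The upstream one (0.446; 98195001 to 98200000) held the TSS of B3gnt6. With all weak boundaries left out, the nearest boundary was 416 kb away and the stretch 980 kb long. That stretch held 3 weak boundaries, these 2 flanks among them. The nearest odorant receptor gene, Olfr520, was 1.58 Mb from Omp.

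The bases before the Omp TSS are shown because Ebf factors are known regulators of olfactory neuron genes and Omp was the only transduction gene with their consensus in the 1000 bases before the TSS. The consensus searched was TCCC, 2 bases of any kind and GGGA, which reads the same on both strands; 2.88% of protein-coding genes have it in that window. A match is a sequence and not a binding site measured here.
Omp upstream (GRCm38 chr7:98145503-98145752, reverse strand): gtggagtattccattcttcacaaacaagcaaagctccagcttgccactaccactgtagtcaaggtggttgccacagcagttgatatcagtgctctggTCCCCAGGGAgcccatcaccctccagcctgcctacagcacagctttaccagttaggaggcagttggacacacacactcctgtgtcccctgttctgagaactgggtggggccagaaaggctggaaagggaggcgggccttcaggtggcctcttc
Omp farther upstream (chr7:98146161-98146190, reverse strand): gcctcacgtcTCCCACGGGAggtggaggat
Capitals mark the consensus, which began at its nearer end 144 and 669 bases before the TSS. The stretch also holds an exon of a non-coding Capn5 transcript. Within 250 bases 0.901% of protein-coding genes have a match. Within 2000 bases 5.09% do, and there Cnga2 had one as well, 1801 bases before its TSS. The other 8 genes had none in any of the 3 windows.

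Domain lengths fell at both ends of the distribution. Their median was 190 kb, against 270 kb over all protein-coding genes (interquartile range 190 to 395 kb) and 260 kb over all 7590 intervals. The quartile counts that follow were chosen after the values were seen. Those of Cngb1, Gng13, Cnga4, Gnal and Adcy3, 5 of 10, were under the lower quartile over genes (23.4% of genes were), and those of Stoml3, Cnga2 and Ric8b above the upper one (24.9%). The direction against other genes depended on weak boundaries: with strong boundaries alone the median was 648 kb, against 465 kb over all protein-coding genes. The order was Cngb1 95, Gng13 110, Cnga4 150, Gnal and Adcy3 165 each, Omp 215, Ano2 365, Stoml3 460, Cnga2 470 and Ric8b 735 kb. The domain of Gng13 held no part of the gene, and the stretch on the other side of its bin was 235 kb long with 3 protein-coding TSSs. With bins of 5 kb, the lengths of Stoml3 and Cnga2 differed by 2 bins. The median number of other protein-coding TSSs in a domain was 3.5 (range 0 at Ano2 to 13 at Gng13), against 5 over all protein-coding genes (interquartile range 2 to 9).

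**Figure D3:**
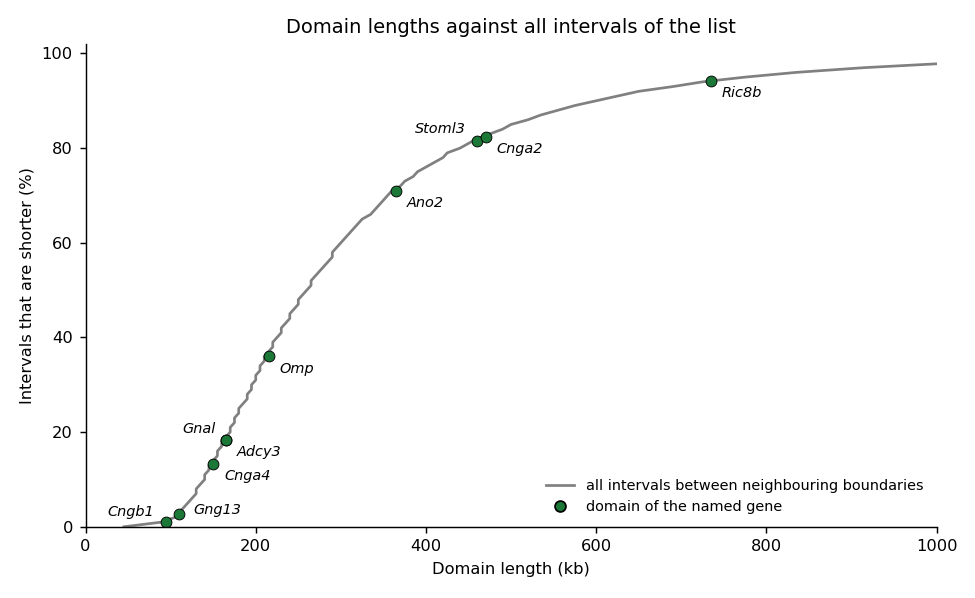
Domain length of each gene (x axis, kb) against the percentage of all 7590 intervals that are shorter (y axis). The grey line is the distribution of all intervals and the points are the 10 genes, from Cngb1 (95 kb) to Ric8b (735 kb); 6 of them lie left of the median of 260 kb.

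In base composition, also examined after domain values were seen, 9 of 10 domains lay on the same side of the median interval. GC content was above the interval median of 42.5% in 9 of 10, against 65.1% of protein-coding genes, and from 42.9% at Stoml3 to 52.3% at Gng13 among these. The soft-masked (repeat) share was below the interval median of 30.7% in the same 9, from 19.3% at Gng13 to 28.9% at Stoml3, against 50.5% of protein-coding genes. The medians differed less in GC, 44.7% over the 10 genes' domains against 44.2% over those of all protein-coding genes, than in the soft-masked share, 24.9% against 30.5%. Cnga2 on chromosome X was the exception in both counts, with 40.4% GC and 41.5% soft-masked bases. The domain of Gng13, at the far end of both ranges, held no part of the gene.

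In 7 of the 8 genes whose TSS lay outside a bin, the nearest boundary was upstream of the TSS, against 52.0% of protein-coding genes outside bins. Ric8b was the exception. This count was chosen after its values were seen. It rested on weak boundaries: with strong boundaries alone it was 4 of the 9 genes outside a bin (51.7% of all genes outside bins), and with a strength of at least 1 it was 3 of 9 (50.9%).

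Other genes of odorant signalling, 20 in number, cover receptor transport, G protein cycling, cAMP breakdown, calmodulins, ion transport and the neurons that signal through cGMP. Of these, 3 (15.0%) had their TSS at a boundary, against 14.3% of all protein-coding genes. Calm3 started in a strong bin (strength 0.565) and Calm2 in a weak one (0.208), both calmodulin genes. Gucy2d, the receptor guanylyl cyclase gene of a small subset of olfactory neurons, started 4.58 kb from a weak one (0.383). Reep1, a receptor transport gene, and the kinase gene Camk4 were the farthest from a boundary, at 117 and 110 kb. The receptor transporter genes Rtp1 and Rtp2 lay 15.9 and 47.6 kb from strong boundaries. The median distance to the nearest boundary over the 20 genes was 49.1 kb, and their median domain length was 292 kb. A boundary bin overlapped 6 of the 20, against 16.2% of all protein-coding genes, 14.4% of those of 10 to 50 kb and 31.7% of those of 50 to 400 kb. Lengths were not matched: the median gene length was 48.2 kb over the 20 genes and 93.6 kb over those of 50 to 400 kb. The nearest boundary was upstream in 10 of the 18 outside bins (55.6%), against 52.0% of all protein-coding genes.

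Of 41 paralogs of the transduction genes, members of the same gene families, 4 (9.76%) had their TSS at a boundary, against 14.3% of all protein-coding genes. Gnao1, the gene of the Go alpha subunit, started in a strong bin (0.503) and Gng4 in a weak one (0.250). Gnai3 lay 8.86 kb from a weak one (0.218) and Adcy4 9.10 kb from a strong one (0.640). None of 9 anoctamin, 3 stomatin-family or 3 channel paralogs was at a boundary, and these groups are too small to set apart from the 14.3%. Gnas, the closest relative of Gnal, was 15.7 kb from a strong boundary (1.5), and the retinal channel genes Cnga1, Cnga3 and Cngb3 were 221, 50.6 and 209 kb from strong ones. The Gnas distance runs from the 5′ end of its gene record, which a boundary bin overlapped, and distances from other Gnas starts are not given. Ric8a, at 53.0 kb, was nearer to a boundary than Ric8b. The adenylyl cyclase genes Adcy2 (495 kb) and Adcy8 (227 kb) were the farthest. The median distance was 50.6 kb and the median domain length 230 kb. A boundary bin overlapped 12 of the paralogs (29.3%, with a median gene length of 49.0 kb), against the same 16.2% and 31.7%, again not matched for length. Over the paralogs outside bins, the nearest boundary was upstream in 15 of 39 (38.5%), against 52.0%.

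**Figure D4:**
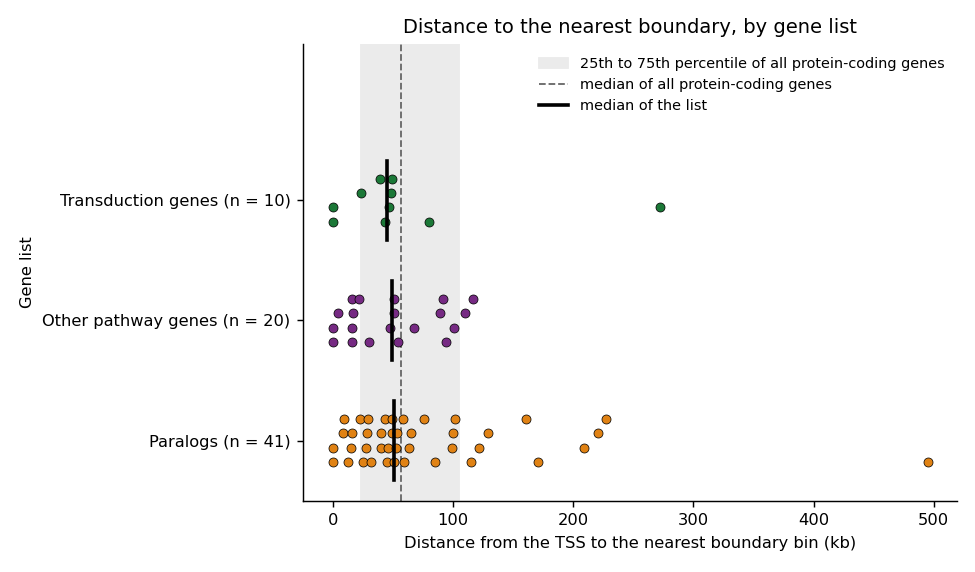
Distance from each TSS to the nearest boundary bin (x axis, kb) for the 10 transduction genes, 20 other pathway genes and 41 paralogs (rows; 1 point per gene, spread vertically for visibility). Black lines are list medians (45.3, 49.1 and 50.6 kb), and the band and dashed line are the 25th to 75th percentile and the median (56.6 kb) of all protein-coding genes. All 3 medians lie within that band.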

How the data were processed

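In situ Hi-C contacts of both replicates were combined by the authors into 1 contact matrix on GRCm38, and boundaries were called on it, per the labels' design text. The sources used here name no caller, version or window. Boundary strength is the score deposited by the authors for each 5 kb bin, used as given. It was not normalized further.

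TSSs are the 5′ ends of GENCODE M21 gene records, and 0 bins lay past a chromosome end of the GRCm38 sequence. Each gene was placed between its nearest bins. Distances run from the TSS to the nearer bin edge. Protein-coding genes without a boundary on both sides have no domain (21551 of 21755 have one). Paralog symbols numbered 43, of which 41 were found, and Gnas and Cnga3 are in both lists. Motifs were searched on both strands of the RefSeq copy of GRCm38.p6. Placement and motif search were checked on simulated data. Python 3.11.15, numpy 2.4.6, pandas 2.3.3, pysam 0.24.0 and matplotlib 3.10.9 were used.

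Named genes are the 10 genes, the genes starting in their domains (where more than 10, the 5 nearest on each side), genes overlapping flanking boundaries, and list genes at a boundary or, 2 per list, farthest from one. Genes outside this rule were chosen after their values were seen. The members and lists were chosen with earlier results of these data known. Alternatives were the boundary class, strength and distance, the annotation, autosomes alone, and motif windows.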

Additional observations from a re-analysis of the deposited data

How the results depend on the processing

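No paired analysis was possible because the boundary table holds pooled values, and for the same reason no replicate could be omitted. A count or median was taken as kept when it stayed within 1.5 times its main value, since no replicate spread exists. Of 28 alternatives to the summary values, 10 were kept so. With strong boundaries alone, 1 of 10 transduction genes (Gnal) was at a boundary (9.3% of all protein-coding genes) and 1 was overlapped (10.3%). The median domain was then 648 kb with 7.5 other genes, and the median flank strength was 0.942. Pathway genes at a boundary then numbered 1 of 20 and paralogs 2 of 41. Leaving out boundaries can only lengthen domains, add genes to them and raise flank strength, so the direction of these changes was fixed in advance. The 7.5 genes and the 0.942 have no value over all genes beside them. With a strength of at least 1, 1 gene was at a boundary (4.03%), 1 was overlapped (4.05%) and the median domain was 1470 kb (1540 kb over all protein-coding genes). Against the main setting, where members' domains were shorter than those of other genes (190 against 270 kb), strong boundaries alone gave longer ones (648 against 465 kb). Requiring the whole bin inside the gene left 1 overlapped (10.2%). Within 25 kb there were 3 of 10 transduction genes, 8 of 20 pathway genes and 8 of 41 paralogs (26.5% of all protein-coding genes), and in the bin itself 2, 2 and 2 (3.86%). The CTCF consensus was at 9 flanks within 25 kb (38.5% of all boundaries), 1 in the bin and 19 with a looser core, which 90.2% of all boundaries had. The Ebf consensus was before 2 genes within 2000 bases (5.09%). Single domain lengths, which could only grow, moved in 18 of 20 cases, Adcy3 and Ric8b excepted with strong boundaries alone. RefSeq starts gave the same 190 kb and 2 genes at a boundary, and autosomes alone 165 kb. Depth could not be assessed.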
